A study of Homo sapiens with 12 samples.

Results

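The genes described here are 44 interferon-stimulated effector genes, the antiviral and immune genes that cells switch on when they sense interferon. They were chosen by name from a list and looked up in the raw count table, which holds 42157 genes, and all 44 were found. The rule itself uses no measured value, although the list was drawn up with earlier results of these data known. Of the 44, 37 had enough reads to be tested, among 13696 genes tested in all.

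Polyadenylated RNA was sequenced from HL-60 cells, an established human cell line of promyelocytic leukaemia, in 12 libraries. Cells were treated for 3 h with ML-792 at 0.5 µM together with DNR at 1 µM (ML-792+DNR), with DNR alone at 1 µM, with ML-792 alone at 0.5 µM, or with DMSO, the vehicle. DNR (daunorubicin) is an anthracycline that intercalates in DNA and poisons topoisomerase II, and ML-792 inhibits the SUMO-activating enzyme, which starts the attachment of the small protein SUMO to other proteins. Each group had 3 replicates, so that the whole design is 1 cell line at 1 time point and at 1 dose of each drug.

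Type I interferons bind a receptor whose JAK kinases phosphorylate STAT proteins, and these join IRF9 in a complex that binds the interferon-stimulated response element (ISRE) in the promoters of the effector genes. Interferon gamma acts through STAT dimers that bind another element, GAS, and the factors IRF1 and IRF7 bind sites that resemble the ISRE. In myeloid cells the effector proteins cut, edit or mask foreign RNA, tether virus particles, attach the ubiquitin-like protein ISG15 to other proteins, and prepare peptides for display to T cells.

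The libraries held 28647951 to 46451654 reads in genes, and 18340 to 19236 genes had at least 1 read. The 8 promyelocyte markers were all detected, with a summed level of 10670 to 13807 CPM (counts scaled to a common library total by the TMM method) per library. MPO made up most of it, with 10086 to 12198 CPM, while ELANE had 0.324 to 4.03 CPM. Lymphocyte markers summed to 7.43 to 13.8 CPM, mostly NKG7 (6.96 to 12.7 CPM), with CD3E and MS4A1 at 0. Erythroid markers summed to 0.518 to 1.31 CPM, mostly KLF1 (0.432 to 1.27 CPM), with HBA1, HBA2 and HBB at 0. Stromal and epithelial markers summed to 1.63 to 3.13 CPM, mostly KRT8 (1.55 to 3.06 CPM), with COL1A2, EPCAM and KRT19 at 0. The mitochondrial share of reads was 4.01% to 6.37% in the replicate 1 libraries and 2.49% to 3.48% in replicates 2 and 3. Since RNA of whole cultures was measured, a change in the number of cells of a kind and a change in RNA per cell cannot be told apart.

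Within 3 h DNR raised 3 of the 37 tested effector genes at least 2-fold (8.11%, against 4.07% of all tested genes). These were IFI6, OASL and TAP1. OAS3, HERC6 and PARP14 were higher by less than 2-fold, and SAMD9 was lower by less than 2-fold. With ML-792 alone no member passed the test. With ML-792 and DNR together IFI6 and OASL rose at least 2-fold over DMSO, and TAP1 was higher by less than 2-fold. Without the 2-fold minimum 10 members were higher there (27.0%, against 17% of all genes) and 3 were lower (8.11%, against 18.4%). No member differed from DNR alone past the test.

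A promoter table from RefSeq (build GRCh38.p14, 250 bases before to 50 after each gene's start) held 36 of the 44 members. A match to the ISRE core, GAAA with any 2 bases and then GAAA again, on either strand was present in 23 of these 36 promoters (63.9%), against 3.65% of all 27305 promoters in the table. A match to the GAS core TTCNNNGAA was present in 5 of the 36 (13.9%), against 7.88% of all promoters. The NF-kB consensus, looked for after the members' values had been seen, was matched in 5 of the 36 (13.9%), against 5.72% of all. Matches were counted on both strands and could overlap each other. A match is a description of the letters and not a measured binding site. Of the members that passed the adjusted p in DNR against DMSO, 5 of 6 with a promoter held an ISRE match, and so did 14 of 24 that did not pass it.

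The promoters of 5 members are printed 5′ to 3′ on the strand of the gene, with the ISRE matches in capitals, as examples of members with the element at different changes after DNR. IFI6 (chr1:27672143-27672442, minus strand), TAP1 (chr6:32853655-32853954, minus strand) and OAS3 (chr12:112938224-112938523, plus strand) were higher after DNR. IFIT3 (chr10:89327747-89328046, plus strand) and ISG20 (chr15:88638766-88639065, plus strand) had lower mean levels after DNR, but neither passed the test. The promoter of IFI6 holds 3 matches, those of TAP1, OAS3 and IFIT3 hold 2 each, and that of ISG20 holds 1.
IFI6: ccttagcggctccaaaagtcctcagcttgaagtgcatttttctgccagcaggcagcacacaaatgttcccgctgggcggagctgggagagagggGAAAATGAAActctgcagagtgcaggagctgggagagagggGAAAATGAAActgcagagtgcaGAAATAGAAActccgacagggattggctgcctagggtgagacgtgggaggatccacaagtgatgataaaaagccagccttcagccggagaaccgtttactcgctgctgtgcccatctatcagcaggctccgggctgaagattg
TAP1: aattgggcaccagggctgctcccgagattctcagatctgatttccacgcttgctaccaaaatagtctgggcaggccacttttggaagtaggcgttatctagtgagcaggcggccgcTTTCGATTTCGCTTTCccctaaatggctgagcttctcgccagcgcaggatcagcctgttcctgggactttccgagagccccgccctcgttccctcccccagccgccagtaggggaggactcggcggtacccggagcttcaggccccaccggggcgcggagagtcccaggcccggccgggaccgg
OAS3: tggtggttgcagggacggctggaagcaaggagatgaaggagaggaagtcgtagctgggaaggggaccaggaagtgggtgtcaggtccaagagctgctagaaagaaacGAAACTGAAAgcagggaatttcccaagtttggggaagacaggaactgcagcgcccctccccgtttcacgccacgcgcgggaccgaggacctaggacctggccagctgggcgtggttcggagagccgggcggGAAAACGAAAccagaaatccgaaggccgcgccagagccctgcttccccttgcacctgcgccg
IFIT3: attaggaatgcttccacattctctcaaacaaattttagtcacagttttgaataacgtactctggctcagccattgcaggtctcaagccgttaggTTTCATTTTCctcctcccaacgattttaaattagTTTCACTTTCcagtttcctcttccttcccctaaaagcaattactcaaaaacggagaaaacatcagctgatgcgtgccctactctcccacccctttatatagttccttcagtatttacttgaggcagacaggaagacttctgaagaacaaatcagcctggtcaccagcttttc
ISG20: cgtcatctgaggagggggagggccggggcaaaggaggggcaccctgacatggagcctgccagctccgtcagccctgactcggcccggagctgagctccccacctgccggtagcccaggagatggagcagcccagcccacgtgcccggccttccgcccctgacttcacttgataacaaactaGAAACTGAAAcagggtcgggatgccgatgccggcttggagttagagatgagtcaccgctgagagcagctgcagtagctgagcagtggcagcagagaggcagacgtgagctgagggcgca

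The members differed widely in level. Over all libraries the tested members averaged between 0.338 and 394 CPM. Of the 37, 2 were above 100 CPM, 16 lay between 10 and 100, 13 between 1 and 10, and 6 were below 1. Divided by exon length, IFITM2 led with 117 CPM per kb, followed by IFITM1 with 58.2, BST2 with 46.7, ADAR with 32.2, PSMB8 with 17.1 and TRIM21 with 12.8 CPM per kb. IFITM1 and IFITM2 are membrane proteins that block virus entry, and BST2 (tetherin) holds budding virus at the cell surface. IFITM1, IFITM2 and IFITM3 are related copies. Reads with several alignments were not counted for any gene, so the levels of these copies are uncertain.

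**Figure D1:**
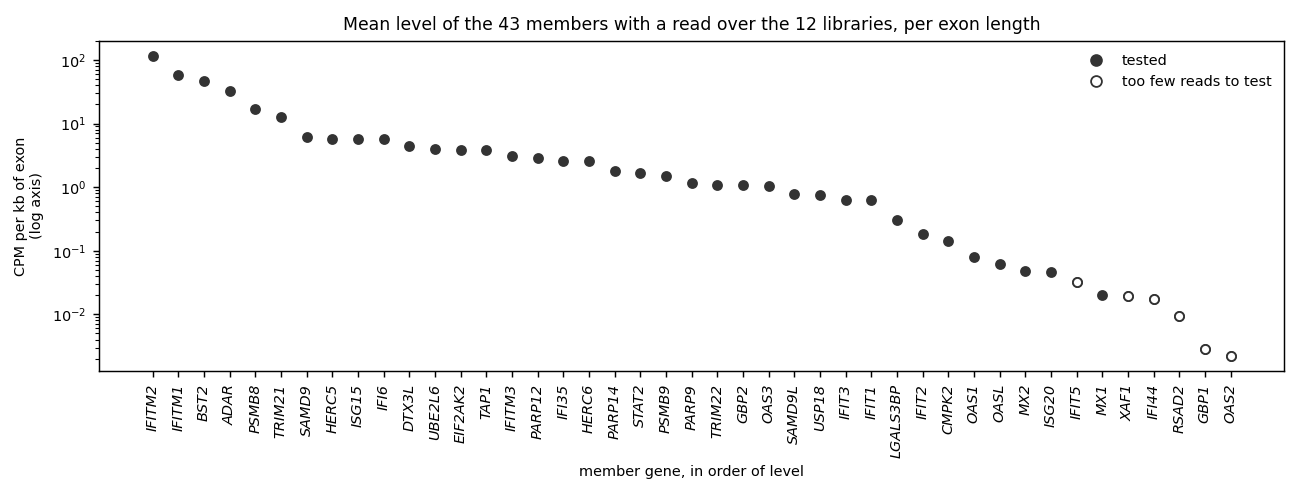
Mean level over the 12 libraries of the 43 members with a read, in CPM per kb of exon on a log axis, ordered from high to low. Filled points are the 37 tested members and open points are members with too few reads to test, and IFITM2 leads with 117 CPM per kb.

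The 7 members that were not tested had 0 to 61 reads in total over the 12 libraries. They were IFI44, IFI44L, IFIT5, OAS2, RSAD2, XAF1 and GBP1, and IFI44L was at 0 in every library. RSAD2 (viperin, which makes a chain-ending nucleotide against viruses) had 1, 4 and 0 reads in the ML-792+DNR libraries, 2, 1 and 4 in the DNR libraries, 1, 0 and 0 in the ML-792 libraries and 3, 2 and 6 in the DMSO libraries. At this depth 3 reads in a library come to 0.0647 to 0.103 CPM, so falls and small changes of these genes were not detectable. With no count filter 43 members could be tested, all but IFI44L, and none of these low genes was called in any comparison.

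For DNR against DMSO, the question was which effector genes answer the anthracycline. A member was called when its Benjamini-Hochberg adjusted p, over all 13696 genes, was below 0.05 in edgeR's quasi-likelihood test and the change was at least 2-fold. By this rule 3 of 37 tested members rose (8.11%), where 4.07% of all tested genes were called higher. No member was called lower, where 2.91% of all genes were called lower. At an unadjusted p below 0.05, a count made for the members only and not for all genes, 7 were higher and 4 were lower. DESeq2 also called 0 lower. Without the 2-fold minimum 6 members were higher (16.2%, against 14.3% of all genes) and 1 was lower (2.70%, against 15.7% of all genes). The median log2 change of the tested members was 0.01, and that of all genes was also 0.01, with 20 members above 0 and 17 below.

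IFI6, a membrane protein of mitochondria and endoplasmic reticulum that limits apoptosis and virus replication, lies on chromosome 1 at 27992575 to 27998723, minus strand (GRCh37, GENCODE annotation). It had 7.81, 6.14 and 7.98 CPM in the DNR libraries, against 2.70, 3.43 and 3.08 CPM in the DMSO libraries. The lowest DNR library stood above the highest DMSO library. The means were 7.31 ± 1.02 CPM in DNR and 3.07 ± 0.368 CPM in DMSO (SD, n = 3 each), a log2 change of 1.25 with a standard error of 0.24 (edgeR, adjusted p = 0.00162). The change stayed past the threshold whichever library was left out, with log2 values of 1.15 to 1.36.

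OASL, a relative of the oligoadenylate synthetases that lacks their enzyme activity and strengthens RIG-I signalling, lies on chromosome 12 at 121455566 to 121477049, minus strand. It had 17, 14 and 25 reads in the DNR libraries, against 5, 4 and 14 reads in the DMSO libraries. In CPM these were 0.490, 0.434 and 0.779 in DNR, against 0.108, 0.124 and 0.357 in DMSO. The groups did not overlap, but the reads were few and DMSO replicate 3 stood well above the other DMSO libraries. The log2 change was 1.52 with a standard error of 0.42 (edgeR, adjusted p = 0.0159). It lost its call without DMSO replicate 1 (edgeR, adjusted p = 0.0846), without DMSO replicate 2 (0.0605) and without DNR replicate 3 (0.0775), and in replicates 2 and 3 alone (0.1504).

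TAP1, a subunit of the transporter that carries peptides into the endoplasmic reticulum for MHC class I molecules, lies on chromosome 6 at 32812986 to 32821593, minus strand. It had 27.20, 23.19 and 25.49 CPM in the DNR libraries, against 12.80, 13.02 and 12.13 CPM in the DMSO libraries. The groups were far apart for their spread, with a log2 change of 1.00 and a standard error of 0.11 (edgeR, adjusted p = 1.92e-05). The value sits on the 2-fold limit. In 16 of 22 alternatives it fell just under it, with a range of 0.94 to 1.05 over all 22. Exons of TAP1 overlap those of the antisense gene PSMB8-AS1, and the sources used here do not give how the counting treated strand, which leaves part of its reads uncertain.

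The other members of antigen processing did not follow. PSMB8 and PSMB9 are catalytic subunits of the immunoproteasome, which cuts the peptides that TAP1 carries, and in RefSeq the start sites of PSMB9 and TAP1 lie 488 bases apart on opposite strands. PSMB9 had 5.157, 4.992 and 5.610 CPM in the DNR libraries, against 4.035, 6.001 and 4.204 CPM in the DMSO libraries. These ranges overlap, and the log2 change of 0.15 had a standard error of 0.20 (edgeR, adjusted p = 0.62). PSMB8 had a log2 change of 0.01 with a standard error of 0.11. Exons of PSMB8 and PSMB9 overlap each other on opposite strands and also overlap PSMB8-AS1, so part of their reads is uncertain too.

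**Figure D2:**
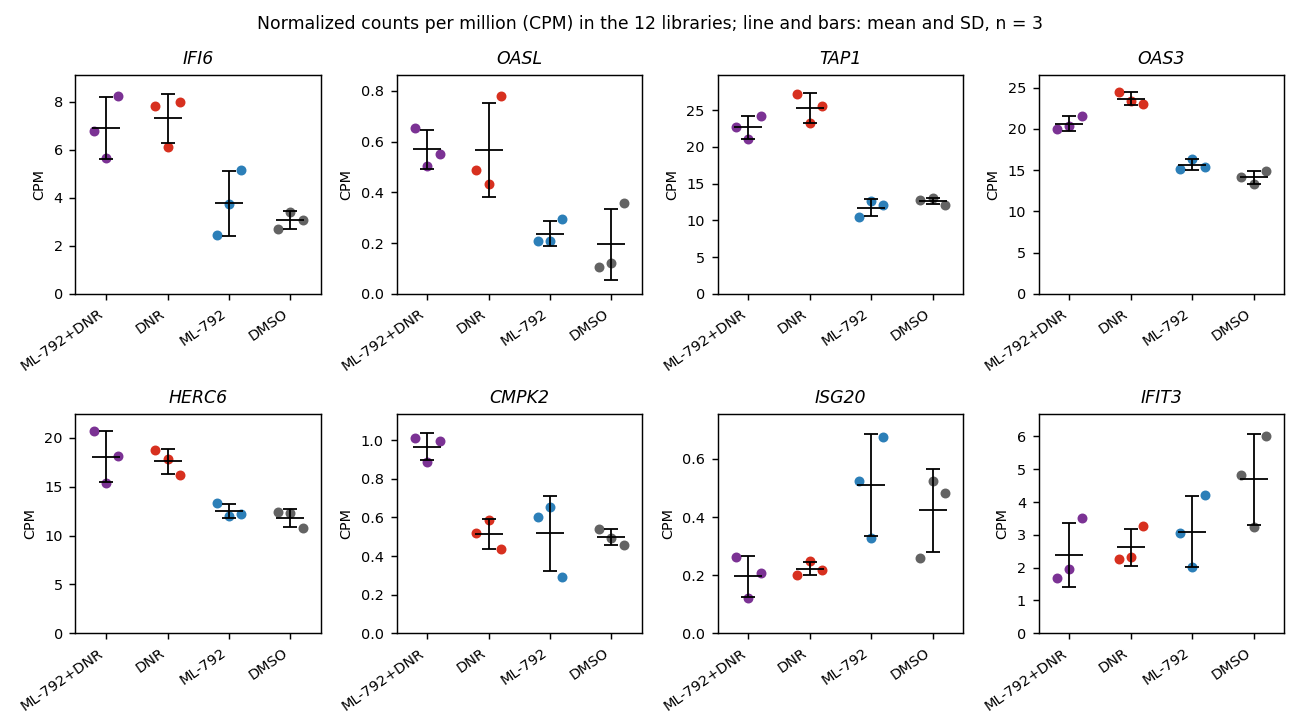
CPM of 8 members in every library, with groups in the order ML-792+DNR, DNR, ML-792 and DMSO, where points are libraries and the line and bars are the mean and SD of 3. IFI6, OASL, TAP1, OAS3 and HERC6 stand higher in both groups with DNR than in DMSO, while CMPK2 stands apart only in ML-792+DNR, with 0.887 to 1.01 CPM against 0.436 to 0.589 CPM in DNR.

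Among the genes of RNA sensing and translation block, 8 of 10 were tested and OASL was the one called. OAS3, which makes the short oligoadenylates that switch on RNase L, lies on chromosome 12 at 113375856 to 113414265, plus strand. It had 24.5, 23.3 and 23.0 CPM in the DNR libraries, against 14.2, 13.3 and 14.9 CPM in the DMSO libraries. All DNR values exceeded all DMSO values, and the log2 change was 0.74 with a standard error of 0.09 (edgeR, adjusted p = 5.36e-05), under the 2-fold limit. OAS1, its smaller relative, had 0.576, 0.837 and 0.904 CPM in DNR, against 1.17, 0.990 and 1.30 CPM in DMSO. Its groups also did not overlap, but in the opposite direction, and it missed the threshold with a log2 change of -0.58 (edgeR, adjusted p = 0.0955).

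The IFIT proteins bind foreign RNA and keep it from the ribosome. IFIT3 had 2.28, 2.33 and 3.27 CPM in the DNR libraries, against 4.81, 3.25 and 6.01 CPM in the DMSO libraries. The ranges overlap slightly, and the log2 change of -0.84 with a standard error of 0.32 missed the threshold (edgeR, adjusted p = 0.0616). Without DMSO replicate 2 it was called lower, with a log2 change of -1.05. IFIT1 had a log2 change of -0.67 and IFIT2 one of -0.23, with adjusted p-values of 0.24 and 0.75 in edgeR. In a fit with the replicate number as a block IFIT1 and IFIT3 passed the adjusted p as lower, below 2-fold. IFIT3 exons overlap the antisense gene LIPA. ADAR, which edits adenosine in double-stranded RNA, had 399 ± 7.31 CPM in DNR and 414 ± 37.4 CPM in DMSO (SD, n = 3 each). EIF2AK2, the kinase PKR that halts translation, had 35.5, 44.8 and 38.4 CPM in DNR, against 47.8, 51.1 and 43.4 CPM in DMSO, with a log2 change of -0.26 (edgeR, adjusted p = 0.25).

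Of the virus restriction genes 13 of 15 were tested and none was called in DNR against DMSO. SAMD9, a cytoplasmic protein that restricts poxviruses, had 38.0, 34.2 and 39.5 CPM in the DNR libraries, against 50.6, 42.4 and 48.2 CPM in the DMSO libraries. Every DNR value lay below every DMSO value, and the log2 change was -0.34 with a standard error of 0.09 (edgeR, adjusted p = 0.0141). Without DMSO replicate 1 its adjusted p was 0.0531. MX1, a dynamin-like GTPase that traps viral nucleoproteins, had 5, 4 and 10 reads in DNR, against 15, 9 and 20 reads in DMSO, and its log2 change of -0.94 did not pass (edgeR, adjusted p = 0.13). ISG20, an RNA exonuclease, had 0.202, 0.248 and 0.218 CPM in DNR, against 0.259, 0.526 and 0.484 CPM in DMSO (log2 change -0.89, edgeR, adjusted p = 0.12).

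The abundant restriction factors stayed near their DMSO levels. IFITM2 had 183 ± 19.4 CPM in DNR and 178 ± 23.4 CPM in DMSO, IFITM1 had 90.8 ± 11.8 CPM in DNR and 91.3 ± 14.8 CPM in DMSO, and BST2 had 51.1 ± 4.82 CPM in DNR and 47.6 ± 6.04 CPM in DMSO (SD, n = 3 each). Their log2 changes were 0.04, -0.01 and 0.10, each with a standard error of 0.12 or 0.13. None of these differences exceeded the spread between replicates. Of the other restriction genes, IFITM3, MX2, GBP2, SAMD9L, TRIM21, TRIM22 and CMPK2 had log2 changes between -0.11 (MX2) and 0.21 (TRIM21) in DNR against DMSO, and none passed the test.

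All 5 genes of the ISG15 system were tested and none was called. HERC6, a ubiquitin ligase related to the human ISG15 ligase HERC5, had 18.8, 17.8 and 16.2 CPM in the DNR libraries, against 12.5, 12.3 and 10.7 CPM in the DMSO libraries. The groups were separate, with a log2 change of 0.58 and a standard error of 0.12 (edgeR, adjusted p = 0.00329). ISG15 itself, the ubiquitin-like modifier, ranged from 4.62 to 6.67 CPM in DNR and from 1.90 to 5.41 CPM in DMSO. These ranges overlap and its log2 change of 0.59 had a standard error of 0.42 (edgeR, adjusted p = 0.33). HERC5 had a log2 change of 0.22, USP18, which removes ISG15, one of 0.31, and UBE2L6, its conjugating enzyme, one of -0.01, and none of them passed the test.

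Of the 4 ADP-ribosylation genes, PARP14, which attaches single ADP-ribose units to proteins, passed without the fold minimum. It had 19.4, 20.3 and 24.3 CPM in DNR, against 14.7, 15.3 and 17.8 CPM in DMSO. The groups did not overlap, and the log2 change was 0.42 with a standard error of 0.12 (edgeR, adjusted p = 0.0176). It missed the threshold without DMSO replicate 1 (0.0879), DMSO replicate 2 (0.0609) or DNR replicate 3 (0.0834). PARP9 and its partner DTX3L, which lie head to head with start sites 446 bases apart, had log2 changes of -0.20 and -0.15, and PARP12 had one of -0.10. Of signalling and other members, STAT2 had a log2 change of 0.27 with a standard error of 0.17 (edgeR, adjusted p = 0.27). IFI35 (-0.02) and LGALS3BP (0.34) did not pass either.

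For ML-792 against DMSO, the question was whether blocking SUMO attachment alone moves these genes. Of 37 tested members 0 were called higher and 0 lower by edgeR, where 0.073% and 0.0073% of all tested genes were called. Without the fold minimum both counts were also 0, where 0.183% of all genes were higher and 0.0584% lower. At an unadjusted p below 0.05, counted for the members only, 1 member was higher and 0 were lower, and DESeq2 called 0. That member was HERC5, with 30.6, 29.7 and 27.7 CPM in the ML-792 libraries, against 21.8, 21.4 and 25.8 CPM in the DMSO libraries. All ML-792 values exceeded the DMSO values, with a log2 change of 0.35 and a standard error of 0.10 (edgeR, adjusted p = 0.36). For 29 of the 37 members the 95% interval of the difference excluded a 2-fold change in either direction. The median log2 change was 0.05 for the members and -0.01 for all genes.

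For ML-792+DNR against DMSO, 2 of 37 tested members rose at least 2-fold, where 3.93% of all tested genes were called higher. None was called lower by edgeR, where 2.56% of all genes were, and DESeq2 called 0 lower. At an unadjusted p below 0.05, counted for the members only, 13 were higher and 4 were lower. Without the fold minimum 10 members were higher (27.0%, against 17% of all genes) and 3 were lower (8.11%, against 18.4% of all genes). The median log2 change was 0.10 for the members and 0.02 for all genes. This comparison shares its DMSO libraries with that of DNR, so they are not independent.

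IFI6 had 6.80, 5.66 and 8.26 CPM in the ML-792+DNR libraries, against 2.70, 3.43 and 3.08 CPM in the DMSO libraries, a log2 change of 1.17 with a standard error of 0.24 (edgeR, adjusted p = 0.00235). OASL had 20, 21 and 16 reads in ML-792+DNR, against 5, 4 and 14 in DMSO, a log2 change of 1.52 with a standard error of 0.42 (edgeR, adjusted p = 0.0137). OASL lost its call without DMSO replicate 1 (0.0753), DMSO replicate 2 (0.0513) or ML-792+DNR replicate 1 (0.0516), and IFI6 kept its call in each fit that left out 1 library. TAP1 had 22.72, 21.06 and 24.20 CPM in ML-792+DNR, against 12.80, 13.02 and 12.13 CPM in DMSO. It was 1.79-fold higher, with a log2 change of 0.84 (edgeR, adjusted p = 8.27e-05).

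CMPK2, a mitochondrial nucleotide kinase whose gene starts 750 bases from that of RSAD2 on the opposite strand, had 1.01, 0.887 and 0.998 CPM in the ML-792+DNR libraries, against 0.539, 0.495 and 0.459 CPM in the DMSO libraries. The groups did not overlap, but the reads were few, with 31, 37 and 29 in ML-792+DNR, against 25, 16 and 18 in DMSO. The log2 change was 0.94 with a standard error of 0.28 (edgeR, adjusted p = 0.0194). It missed the threshold without DMSO replicate 1 (0.0511), DMSO replicate 3 (0.0694), ML-792+DNR replicate 1 (0.0620) or ML-792+DNR replicate 3 (0.0518), and it reached 2-fold (log2 change 1.00) without ML-792+DNR replicate 2. USP18 had 3.56, 4.31 and 3.51 CPM in ML-792+DNR, against 2.72, 2.57 and 2.42 CPM in DMSO, a log2 change of 0.57 (edgeR, adjusted p = 0.0210). HERC5 had 29.9, 30.7 and 33.7 CPM in ML-792+DNR, against 21.8, 21.4 and 25.8 CPM in DMSO, a log2 change of 0.45 (edgeR, adjusted p = 0.0044). CMPK2, HERC5 and USP18 were all separate from DMSO in every library. USP18 missed the threshold without DMSO replicate 2 (0.0513), DMSO replicate 3 (0.0758) or ML-792+DNR replicate 2 (0.0733). OAS3 and HERC6 had log2 changes of 0.55 and 0.61 (edgeR, adjusted p = 0.00055 and 0.00201). BST2 (log2 change 0.32) and TRIM21 (0.23), a cytosolic antibody receptor and ubiquitin ligase, lay at the threshold (edgeR, adjusted p = 0.0491 and 0.0446) and missed it in 9 and 10 of the 12 fits that left out 1 library.

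On the lower side, IFIT3 had 1.70, 1.96 and 3.51 CPM in ML-792+DNR, against 4.81, 3.25 and 6.01 CPM in DMSO, a log2 change of -0.98 (edgeR, adjusted p = 0.0292). It was called lower without DMSO replicate 2 (log2 change -1.19) and without ML-792+DNR replicate 3 (-1.35), and with library size alone as the scaling (-1.02). It missed the threshold without DMSO replicate 1 (0.0703), DMSO replicate 3 (0.114), ML-792+DNR replicate 1 (0.111) or ML-792+DNR replicate 2 (0.0818). SAMD9 had a log2 change of -0.34 (edgeR, adjusted p = 0.0127) and missed the threshold without DMSO replicate 1 (0.0543). EIF2AK2 had 26.2, 46.0 and 31.5 CPM in ML-792+DNR, against 47.8, 51.1 and 43.4 CPM in DMSO, a log2 change of -0.45 (edgeR, adjusted p = 0.0437). Its groups overlap through ML-792+DNR replicate 2, and it missed the threshold in 7 of the 12 fits that left out 1 library. Its log2 change was -0.29 without ML-792+DNR replicate 1 (edgeR, adjusted p = 0.172) and -0.72 without ML-792+DNR replicate 2 (0.000775).

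The replicate numbers paired the samples in this comparison. With the replicate as a block 3 members were called higher and 1 lower. Over all 13696 genes 616 were called higher and 384 lower with the block, against 538 and 350 without it. Without a fold minimum 19 members passed the adjusted p in place of 13, and that count over all genes was not made with the block. DNR against DMSO missed the limit of 0.1 for pairing, with a lowest same-number correlation of 0.0830, where ML-792+DNR against DMSO had 0.122. Even so, each DNR and DMSO library correlated best with that of its own number. The added call on the higher side in ML-792+DNR against DMSO was ISG15, with a log2 change of 1.00 (edgeR with the block, adjusted p = 0.0120). ISG15 had 4.97, 7.57 and 8.36 CPM in the ML-792+DNR libraries, against 1.90, 5.41 and 3.44 CPM in the DMSO libraries. Each ML-792+DNR library stood above the DMSO library of its own number, though the ranges overlap. The added call on the lower side was ISG20, with a log2 change of -1.09 (edgeR with the block, adjusted p = 0.0478), and without the block its adjusted p was 0.0541. The other 4 members that passed the adjusted p with the block alone did so below 2-fold, with log2 changes of -0.46 for IFIT1, 0.24 for IFITM1, 0.20 for IFITM2 and 0.28 for PARP14.

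For ML-792+DNR against DNR, the question was whether inhibition of SUMO attachment alters what DNR does to these genes. Of 37 tested members 0 were called higher and 0 lower by edgeR, where 0.0949% and 0.102% of all tested genes were called. Without the fold minimum both counts were also 0, where 0.256% of all genes were higher and 0.489% lower. At an unadjusted p below 0.05, counted for the members only, 3 members were higher and 1 was lower, and DESeq2 called 0. The 3 higher members were CMPK2, HERC5 and MX1, and the lower one was OAS3. CMPK2 had 1.01, 0.887 and 0.998 CPM in the ML-792+DNR libraries, against 0.519, 0.589 and 0.436 CPM in the DNR libraries. Its groups did not overlap, but the reads were few, with 31, 37 and 29 in ML-792+DNR, against 18, 19 and 14 in DNR. The log2 change of 0.90 did not pass (95% interval 0.28 to 1.52, edgeR, adjusted p = 0.20).

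For the genes that DNR raised, the 95% interval of the log2 difference between ML-792+DNR and DNR was -0.58 to 0.41 for IFI6, -0.79 to 0.79 for OASL and -0.38 to 0.06 for TAP1. These intervals exclude a 2-fold difference in either direction, as they did for 29 of the 37 tested members. OAS3 had 19.97, 20.34 and 21.62 CPM in ML-792+DNR, against 24.52, 23.32 and 23.03 CPM in DNR, a log2 change of -0.19 (edgeR, adjusted p = 0.37). MX1 had 16, 11 and 12 reads in ML-792+DNR, against 5, 4 and 10 reads in DNR, a log2 change of 1.01 whose interval ran over 0.03 to 2.00. With the replicate block 0 members were called.

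**Figure D3:**
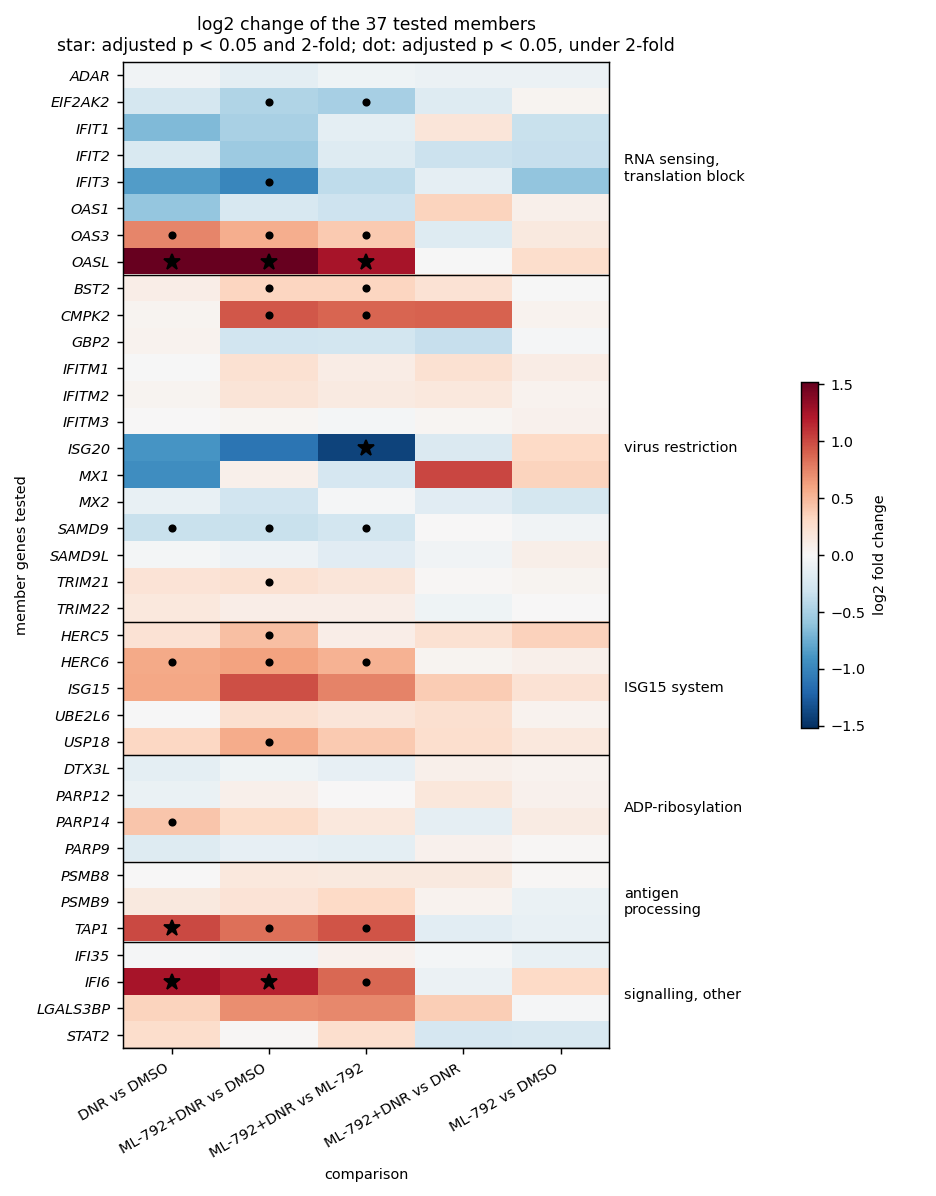
The log2 change of each of the 37 tested members (rows, grouped by role) in 5 comparisons (columns), with colour from lower (blue) to higher (red). Stars mark members past the adjusted p and 2-fold and dots those past the adjusted p below 2-fold, and the columns ML-792+DNR vs DNR and ML-792 vs DMSO hold neither.

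For ML-792+DNR against ML-792, the question was what DNR does when SUMO attachment is blocked. Of 37 tested members 1 rose, where 3.68% of all tested genes were called higher, and 1 fell, where 2.66% were called lower. The member that rose was OASL, with 0.654, 0.503 and 0.551 CPM in ML-792+DNR, against 0.210, 0.209 and 0.294 CPM in ML-792. Its groups were separate, with a log2 change of 1.24 and a standard error of 0.42 (edgeR, adjusted p = 0.0345). The call was lost without ML-792 replicate 1 (0.104), ML-792 replicate 2 (0.0959), ML-792+DNR replicate 1 (0.111) or ML-792+DNR replicate 3 (0.0697), and in DESeq2 (0.0586).

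The member that fell was ISG20, on chromosome 15 at 89178901 to 89199714, plus strand. It had 8, 5 and 6 reads in the ML-792+DNR libraries, against 20, 11 and 23 reads in the ML-792 libraries. In CPM these were 0.262, 0.120 and 0.207 in ML-792+DNR, against 0.525, 0.328 and 0.676 in ML-792. The groups did not overlap, and the log2 change was -1.41 with a standard error of 0.41 (edgeR, adjusted p = 0.0189). The call was lost without ML-792 replicate 1 (0.0503), ML-792 replicate 3 (0.0676) or ML-792+DNR replicate 2 (0.0732).

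Without the fold minimum 7 members were higher than in ML-792 (18.9%, against 16.3% of all genes) and 3 were lower (8.11%, against 17.4% of all genes). TAP1 had 22.7, 21.1 and 24.2 CPM in ML-792+DNR, against 10.5, 12.6 and 12.1 CPM in ML-792, a log2 change of 0.95 (edgeR, adjusted p = 4.37e-05). IFI6 had 6.80, 5.66 and 8.26 CPM in ML-792+DNR, against 2.44, 3.76 and 5.15 CPM in ML-792, a log2 change of 0.87 (edgeR, adjusted p = 0.0133). IFI6 was nearly as high in ML-792 replicate 3 as in ML-792+DNR replicate 2, and it missed the threshold without ML-792+DNR replicate 3 (0.0586). Without ML-792 replicate 3 IFI6 and ISG15 were called too, so that 3 members rose, and without ML-792 replicate 2 TAP1 and CMPK2 were. EIF2AK2 had 26.2, 46.0 and 31.5 CPM in ML-792+DNR, against 49.4, 51.2 and 46.3 CPM in ML-792, a log2 change of -0.50 (edgeR, adjusted p = 0.0300), with ML-792+DNR replicate 2 close to the ML-792 libraries. It missed the threshold without ML-792 replicate 1 (0.0669), ML-792 replicate 2 (0.0821), ML-792+DNR replicate 1 (0.122) or ML-792+DNR replicate 3 (0.104), and its log2 change was -0.76 without ML-792+DNR replicate 2.

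The interaction term asked whether the effect of DNR differed with and without ML-792. By edgeR 0 members were called in either direction, where 0% of all genes were, and DESeq2 called 0. At an unadjusted p below 0.05, counted for the members only, 1 was lower. The member was OAS3, with an interaction log2 value of -0.34 and a standard error of 0.13. The groups that were compared share libraries throughout, so the agreement in direction among the comparisons with DNR is not independent evidence.

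Several members were highest in the same replicate number in every group, a pattern picked out after the values were seen. GBP2, a GTPase that attacks the vacuoles of pathogens, had 12.9 CPM in DNR replicate 3 but 5.91 and 6.02 CPM in DNR replicates 1 and 2, and 12.2 CPM in DMSO replicate 3 but 5.96 and 5.82 CPM in DMSO replicates 1 and 2. IFIT1, IFIT3, GBP2, MX2 and TRIM22 were highest in replicate 3 in 4 of 4 groups, and IFIT1 was lowest in replicate 2 in 4 of 4 groups. The pattern was counted for these genes and IFIT2 only, and its share over all members or all genes was not counted. Other members differed, and PSMB8 and UBE2L6 were highest in replicate 2 in 4 of 4 groups. For PSMB8 replicate 2 had 70.0 CPM in ML-792+DNR, 60.9 in DNR, 66.3 in ML-792 and 63.8 in DMSO. For IFIT1 the values were 2.45, 1.65 and 3.89 CPM in ML-792+DNR, 2.02, 1.83 and 3.15 CPM in DNR, 2.81, 1.67 and 4.32 CPM in ML-792 and 3.56, 2.04 and 5.45 CPM in DMSO. Each ML-792+DNR library of IFIT1 lay below the DMSO library of its own number. Without the block the adjusted p of IFIT1 in edgeR was 0.24 or more in each comparison, and with it IFIT1 passed in ML-792+DNR against DMSO, with a log2 change of -0.46 (edgeR with the block, adjusted p = 0.0232). IFIT1 passed with the block in DNR against DMSO too.

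**Figure D4:**
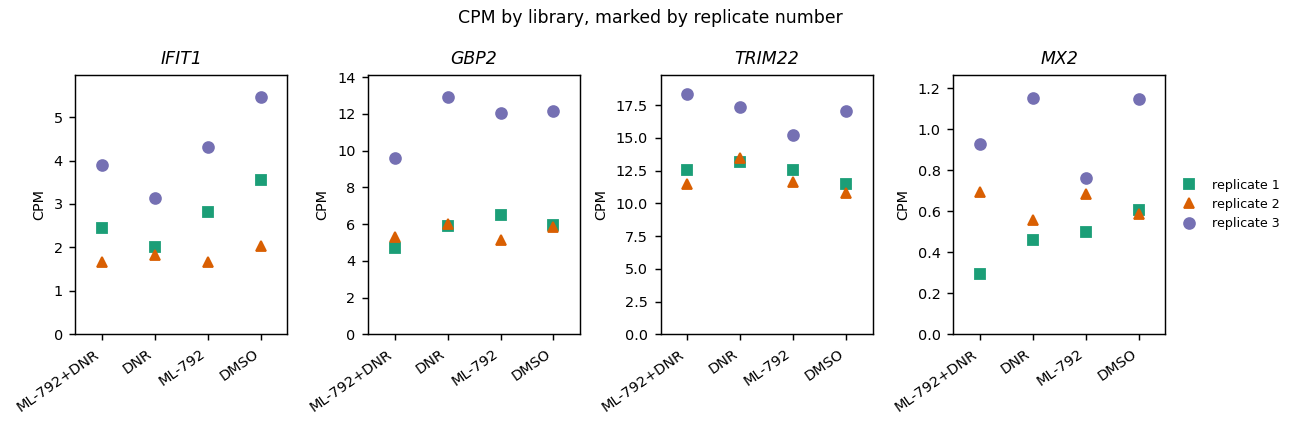
CPM of IFIT1, GBP2, TRIM22 and MX2 in each library, with groups in the order ML-792+DNR, DNR, ML-792 and DMSO and the marker giving the replicate number. Replicate 3 is the highest in 4 of 4 groups for each of the genes shown.

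The upstream genes of the pathway were taken from lists of names. Of 21 interferon genes in the table, 19 had 0 reads in all 12 libraries, which together held 424153244 reads in genes. IFNB1 had 3 reads and IFNA16 had 1, all in the DNR group, which is too few to test. Of 11 receptor and signalling genes 0 were called in DNR against DMSO by edgeR. Without the fold minimum 3 were higher, where 14.3% of all genes were, among them IRF9, with 7.51 ± 1.13 CPM in DNR and 4.27 ± 0.718 CPM in DMSO (SD, n = 3 each). Its log2 change was 0.82 (edgeR, adjusted p = 0.00425).

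Of 5 tested interferon regulatory factors 2 rose in DNR against DMSO, where 4.07% of all tested genes were called higher. IRF1, which binds ISRE-like sites, had 34.74, 32.74 and 34.22 CPM in the DNR libraries, against 14.95, 12.84 and 14.24 CPM in the DMSO libraries. The groups were far apart, with a log2 change of 1.27 and a standard error of 0.10 (edgeR, adjusted p = 1.98e-06). The other was IRF7. Of 7 tested inhibitors of interferon signalling 1 fell, where 2.91% of all genes were called lower. It was IRF2BP2, a corepressor partner of IRF2, with 80.7 ± 23.6 CPM in DNR and 298 ± 23.1 CPM in DMSO (SD, n = 3 each). Its log2 change was -1.89 (edgeR, adjusted p = 1.18e-05). In ML-792+DNR against DMSO the same counts were 2 of 5 regulatory factors higher, again IRF1 and IRF7, and 1 of 7 inhibitors lower, again IRF2BP2, where 3.93% and 2.56% of all genes were called.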

How the data were processed

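Reads were aligned by the authors to hg19 (GRCh37) and summed per gene. The submitters' processing notes name TopHat2 2.1.1, Bowtie2 2.3.5.1, HTSeq 0.11.1 and Cufflinks 2.2.1, as well as Picard and DESeq2 without a version. The deposited table used here holds raw counts per gene, with no normalization. Library preparation was stranded, but the sources used here do not give how the counting treated strand, which leaves overlapping and antisense genes uncertain. In the GENCODE annotation exons of IFI6 overlap LINC02574 on the same strand. Those of CMPK2 and RSAD2 overlap each other on opposite strands, as do those of PARP9 and DTX3L. The table's 5 counter lines name no gene and were dropped. They held reads with several alignments (26.6% to 29.2% of records per library), no feature (3.04% to 3.77%) or an ambiguous one (2.26% to 2.83%). A deposited table of normalized signal and the authors' table of comparisons, which holds log2 fold changes and p-values, were not used.

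Counts were analysed in R 4.3.3 with edgeR 4.0.16 (a minimum count of 10 and a total of 15 in filterByExpr, TMM, quasi-likelihood test, 1 fit over 4 groups, Benjamini-Hochberg adjustment over 13696 genes, limma 3.58.1). A change was called at an adjusted p below 0.05 and at least 2-fold. Standard errors were taken from the test statistic and 95% intervals from its t distribution. DESeq2 1.42.0 was an alternative, as were other scalings and filters, a replicate block, other fold limits and leaving out each library. Replicates were described in the study's methods as independent experiments, and no pair of libraries was a duplicate. An exact permutation test of 3 against 3 cannot give a p below 0.1, so none is given. Read floors of 3 counts cover counting error only.

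The members and gene lists were chosen with earlier results of these data known. The text names members that were called in a comparison, members past the adjusted p and 1.5-fold in DNR against DMSO or ML-792+DNR against DNR, and the 8 with the highest mean CPM (ADAR, IFITM2, IFITM1, PSMB8, BST2, EIF2AK2, SAMD9 and HERC5). All others were named after their values were seen. Samples were paired by number where every same-number correlation of deviations from the group means was above 0.1. The lowest such value was 0.264 for ML-792 against DMSO, 0.122 for ML-792+DNR against DMSO, 0.332 for ML-792+DNR against DNR and 0.143 for ML-792+DNR against ML-792, but 0.0830 for DNR against DMSO and 0.0734 over all groups of the interaction. On simulated counts for DNR against DMSO (13501 genes) recovery was scored by the adjusted p and direction alone, without the 2-fold minimum. The fit recovered 72% of 2-fold increases and 71.4% of 2-fold decreases, and 98% and 90% of 4-fold ones. Unchanged genes passed the adjusted p 7 times. Recovery under the full calling rule was not measured, and the median estimates at 2-fold were 0.99 and -1.01 in log2. Promoter sequences and motif matches came from RefSeq, build GRCh38.p14, and gene positions and exon lengths from the GENCODE annotation on GRCh37.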

Additional observations from a re-analysis of the deposited data

Results flagged for a closer look

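OAS3 is, among the 37 tested members, the one whose libraries moved in opposite directions with ML-792 in the 2 settings. All 3 ML-792+DNR libraries (19.97, 20.34 and 21.62 CPM) lay below all 3 DNR libraries (24.52, 23.32 and 23.03 CPM), and all 3 ML-792 libraries (15.15, 16.40 and 15.44 CPM) lay above all 3 DMSO libraries (14.22, 13.30 and 14.85 CPM). The test of the difference itself gave an interaction log2 value of -0.34 with a standard error of 0.13, and it did not pass over all genes (edgeR, adjusted p = 0.999). With ML-792 the log2 change due to DNR was 0.40, and without it 0.74. OAS3 was picked out from 37 members by this pattern, and its cause was not tested. The share of all tested genes with the same pattern was not counted, so how unusual the pattern is cannot be said.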

How the results depend on the processing

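No member's log2 change reversed in a comparison where it was called. In DNR against DMSO 3 members were called higher and 0 lower: without a fold minimum these were 6 and 1, and in replicates 2 and 3 alone (chosen after seeing the data, for the mitochondrial share) 1 was higher. Leaving out each library gave 1 to 3 higher and 0 to 1 lower, where 400 to 674 of all genes were higher and 303 to 458 lower. In ML-792+DNR against DMSO 2 were higher and 0 lower: with a mean of at least 1 CPM 1 was higher, without a fold minimum 10 and 3, at 1.5-fold 5 and 1, with library size alone 1 lower, with the replicate block 3 higher and 1 lower, and in replicates 2 and 3 alone 1 higher. Leaving out each library gave 1 to 3 higher and 0 to 1 lower, where 385 to 700 of all genes were higher and 274 to 478 lower. In ML-792+DNR against ML-792 1 was higher and 1 lower: DESeq2 called 0 higher, a mean of at least 1 CPM left 0 and 0, no fold minimum gave 7 and 3, 1.5-fold gave 4 higher, and replicates 2 and 3 alone gave 0 and 0. Leaving out each library gave 0 to 3 higher and 0 to 1 lower, where 335 to 705 of all genes were higher and 271 to 476 lower. OASL and ISG20 average below 1 CPM and drop out under that filter. In ML-792 against DMSO, ML-792+DNR against DNR and the interaction 0 members were called under each alternative run. In DNR against DMSO the lowest same-number correlation missed the limit for pairing. There the block left IFI6 and OASL called. It put TAP1 just below 2-fold (log2 1.00), with an adjusted p of 1.53e-05. Without a fold minimum the block gave 8 higher and 4 lower there, with IFIT1 (adjusted p 0.00624) and IFIT3 (0.00237) among the lower. That count over all genes was not made with the block. Without the block 14.3% of all genes were higher and 15.7% were lower at this rule. Each library correlated best with that of its own number. Over all groups the same-number correlations were 0.073 to 0.562, and those of unlike numbers were at most 0.086. The study's methods describe 3 independent experiments, and the labels number the replicates of each group. The sources used here do not state that equal numbers share an experiment. At 2-fold the block called 599 of all genes higher and 429 lower in DNR against DMSO, against 557 and 399 without it. In the paired comparisons it changed no call beyond ISG15 and ISG20 above. Past the adjusted p without a fold minimum in every fit that left out 1 library were 4 of 7 members in DNR against DMSO, 5 of 13 in ML-792+DNR against DMSO and 3 of 10 in ML-792+DNR against ML-792. DESeq2 gave no adjusted p for 4 to 12 members. Depth limits OASL, ISG20, MX1, CMPK2 and the 7 untested members most. Causes were not tested.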

Other observations

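Other interferon-stimulated genes, outside the 44, were counted from a list of names. Of 45 tested, 6 rose in DNR against DMSO (CD274, CXCL10, CXCL11, HELZ2, IRF7 and SLFN5) and 2 fell (SLFN12 and TNFSF10), where 4.07% and 2.91% of all tested genes were called. IRF7 is on this list and also among the regulatory factors counted above. CD274, the checkpoint ligand PD-L1, had 0.615 ± 0.0507 CPM in DNR and 0.143 ± 0.0748 CPM in DMSO (SD, n = 3 each), a log2 change of 2.07 (edgeR, adjusted p = 0.00182). CXCL11, a chemokine that draws T cells, had 0.547, 0.403 and 1.25 CPM in DNR, against 0.0647, 0.0309 and 0.204 CPM in DMSO, a log2 change of 2.80 (edgeR, adjusted p = 0.0103). Both CD274 and CXCL11 had few reads in DMSO, where 3 reads in a library come to 0.0647 to 0.0928 CPM, so the size of their changes is uncertain. SLFN5 had 10.9, 2.17 and 7.11 CPM in DNR, against 0.971, 0.588 and 1.58 CPM in DMSO, a log2 change of 2.67 (edgeR, adjusted p = 0.0055). Its lowest DNR library was close to the highest DMSO library. HELZ2, a helicase coactivator, had 1.27 ± 0.183 CPM in DNR and 0.532 ± 0.2 CPM in DMSO, a log2 change of 1.28 (edgeR, adjusted p = 0.0170). SLFN12 had 3.37 ± 0.153 CPM in DNR and 6.90 ± 0.648 CPM in DMSO, a log2 change of -1.04 (edgeR, adjusted p = 0.000945).

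Of 13 tested genes of nucleic acid sensing, 2 rose in DNR against DMSO (IFIH1 and MB21D1, which encodes the DNA sensor cGAS) and 2 fell (TLR3 and TLR9), where 4.07% and 2.91% of all tested genes were called. MB21D1 had a log2 change of 1.17, TLR3 one of -1.60 and TLR9 one of -1.42. In ML-792+DNR against ML-792, IRF9 of the 11 receptor and signalling genes rose, where 3.68% of all genes did, with 7.62 ± 1.40 CPM in ML-792+DNR and 3.74 ± 0.354 CPM in ML-792 (SD, n = 3 each), a log2 change of 1.02 (edgeR, adjusted p = 0.0011). In ML-792+DNR against DNR 1 gene of all these lists was called, CXCL10, which was lower with a log2 change of -2.67 (edgeR, adjusted p = 0.0127).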
